A study of Mus musculus with 20 samples.

Results

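The neuronal immediate early genes described here are 10 activity-induced genes chosen by symbol, Fos, Fosb, Junb, Egr1, Egr2, Egr4, Arc, Npas4, Nr4a1 and Ier2. All 10 were found among the 19463 genes of the deposited table, and all 10 exceeded the mean normalized count of 10 that a gene needed to be tested. RNA came from whole brains of male C57BL/6J mice, either WT or Katnal2-KO, at P21 (3 weeks of age) or P70 (10 weeks of age), and the 4 groups held 5 mice each, 20 in all. The KO mice carried a constitutive deletion of exon 3 of Katnal2, a microtubule-regulatory protein, made from the EUCOMM allele Katnal2tm1a(EUCOMM)Wtsi by Flp and then by Cre protein applied to early embryos. The labels name no drug or behavioral stimulus for any group, place weaning at about P21 and do not give the time of day at which tissue was collected. Replicates were separate mice.

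Immediate early genes are transcribed within minutes of synaptic activity, before any new protein is made. Calcium entry through NMDA receptors and voltage-gated channels activates kinases that phosphorylate CREB and ternary complex factors, which sit on cyclic AMP response elements and on serum response elements in front of these genes. Most of the products are transcription factors that switch on a later wave of genes, while Arc acts at the synapse itself. In unstimulated brain the transcripts are commonly read as a sign of recent activity, which was not measured in these mice.

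The promoters of 4 members are shown because these genes moved together across mice in the data below. Their upstream bases hold TGACG, a short part of the cyclic AMP response element, and those of Egr2 also hold a CArG box. TGACG does not set these 4 apart, since the promoters of Fosb, Egr4 and Npas4 hold it too. Each run is the 250 bases before a RefSeq transcription start (GRCm38.p6), 5′ to 3′ on the strand of the gene. Capitals mark TGACG on either strand (CGTCA where it lies on the opposite strand), TATAAA and the CArG box, the core of the serum response element.
Fos, chr12:85473640-85473889, strand +: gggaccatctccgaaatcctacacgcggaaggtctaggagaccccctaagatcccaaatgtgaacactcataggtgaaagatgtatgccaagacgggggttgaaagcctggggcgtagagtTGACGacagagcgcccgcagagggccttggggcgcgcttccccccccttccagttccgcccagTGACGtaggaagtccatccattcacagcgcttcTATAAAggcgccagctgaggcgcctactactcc
Junb, chr8:84978749-84978998, strand -: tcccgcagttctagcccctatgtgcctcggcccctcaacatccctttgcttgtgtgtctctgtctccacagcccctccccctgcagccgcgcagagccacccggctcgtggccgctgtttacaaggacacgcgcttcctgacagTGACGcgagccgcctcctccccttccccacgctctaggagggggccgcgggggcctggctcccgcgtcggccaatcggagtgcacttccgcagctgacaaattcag
Egr2, chr10:67537619-67537868, strand +: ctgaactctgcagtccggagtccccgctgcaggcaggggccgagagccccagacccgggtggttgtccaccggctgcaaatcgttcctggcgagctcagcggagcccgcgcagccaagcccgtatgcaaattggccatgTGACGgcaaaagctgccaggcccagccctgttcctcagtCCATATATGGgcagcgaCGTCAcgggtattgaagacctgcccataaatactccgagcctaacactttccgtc
Nr4a1, chr15:101266596-101266845, strand +: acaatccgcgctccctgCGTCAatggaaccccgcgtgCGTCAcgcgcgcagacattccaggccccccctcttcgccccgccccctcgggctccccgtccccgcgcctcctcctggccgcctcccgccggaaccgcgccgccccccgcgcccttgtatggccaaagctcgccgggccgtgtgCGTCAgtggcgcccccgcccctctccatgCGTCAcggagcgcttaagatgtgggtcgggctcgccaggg
RefSeq gave windows of 300 bases, from 250 before to 50 after the start, for 7 members, namely Fos, Fosb, Junb, Egr2, Egr4, Npas4 and Nr4a1. TGACG, which is contained in the full cyclic AMP response element TGACGTCA and so is counted within it, was found on at least 1 strand in 7 of these 7 members. Among all 27025 genes with a window it was found in 23.0%. The first TGACG of Fos began 129 bases before the start and the second began 66 bases before it, while TATAAA began 33 bases before it. Nr4a1 held TGACG at 4 places, all on the opposite strand. The full element TGACGTCA was in 0 of the 7 against 2.03% of genes, the early growth response motif GCGTGGGCG was in 0 against 0.707%, and the AP-1 motif TGANTCA was in 0 against 8.97%. TATAAA was in 2 members (Fos and Junb, the latter at the first base after the start and therefore not shown) against 15.7% of genes. The CArG box was in 1 member, Egr2, against 1.81% of genes. Egr2 has 5 RefSeq windows, of which 4 hold a CArG box and 3 hold TGACG. The first window with both is shown, and it lies within the annotated gene, ahead of an internal start. The Nr4a1 run shown also lies within its annotated gene (101254269 to 101274795), ahead of an internal start. The motifs given here are matches of letters on both strands and do not show that a factor was bound. Elements outside the windows were not looked for.

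Values are normalized counts, that is estimated read counts divided by a size factor per mouse. Their sums ran from 27310523 to 28423042, and the depth estimated from the spacing of low values was 26200000 to 36600000 reads at P21 and 23200000 to 26700000 at P70. Katnal2 had 78.1 to 96.0 normalized counts in the P21 KO mice and 99.3 to 115 in the P21 WT mice, with no overlap, and 95.1 to 125 in KO and 101 to 142 in WT mice at P70, where the groups overlapped. The log2 change was -0.27 (SE 0.10) at P21 and -0.21 (SE 0.13) at P70, with an adjusted p of 1 at both ages. Both replicate 5 mice at P70 stood apart, since their median correlation with the other mice of their group was 0.967 in KO and 0.974 in WT, against 0.984 to 0.986 for the other P70 mice, so results at P70 are also given without them. Whether the ages were prepared and sequenced together is not given in the sources used here, so age and batch cannot be told apart. Nor can more cells of a type be told apart from more RNA per cell in whole brain.

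Per kilobase of annotated exon, Arc and Egr1 were the most abundant members and Egr2 and Fosb the least. Arc, a cytoskeleton-associated protein that promotes removal of AMPA receptors from synapses, had 1105 ± 517 normalized counts per kb in P21 WT mice (SD, n = 5). Egr1, a zinc finger transcription factor of the early growth response family, had 1019 ± 289. Nr4a1, an orphan nuclear receptor, and Junb, an AP-1 subunit, followed at 519 ± 185 and 512 ± 147. The order went on through Egr4, Fos, Ier2 and Npas4 to Egr2, at 38.5 ± 22.2, and Fosb, at 23.7 ± 6.44. In the P21 WT mice the range of each member overlapped that of the next in the order. Both members of a pair were measured in the same mice, so overlapping ranges do not show that neighbours were alike. The order within each mouse was not tested. The tighter P21 KO mice kept the same order. There, 5 of the 9 neighbouring pairs did not overlap (Egr1 above Nr4a1, Junb above Egr4, Fos above Ier2, Ier2 above Npas4 and Npas4 above Egr2). At P70 the order was the same in both genotypes except that Fosb stood above Egr2, at 116 ± 40.7 against 84.2 ± 37.7 per kb in WT, where the ranges overlapped.

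The first question was whether these genes differ between juvenile and adult brain. In WT mice 8 of the 10 members were higher at P70 than at P21 at an adjusted p under 0.05, and in KO mice 9 of 10 were. Over all 17637 genes tested, 5.53% passed in this direction in WT and 5.47% in KO. The fits with age took 1 spread per gene from all 4 groups, so a member's SE is the same in both genotypes. When the 10 WT mice were fitted alone, Junb and Egr2 did not pass (adjusted p = 0.0827 and 0.0717 from limma). The members and the lists below were chosen with earlier results of these data known. The contrasts with all genes and with the lists are therefore descriptive. None of the 10 was called lower. The median log2 change over the members was 0.81 in WT (1.75-fold) and 1.05 in KO (2.07-fold), against 0.00 and -0.01 over all genes tested. Fosb changed most in both genotypes, followed by Arc (1.26) and Egr2 (1.24) in WT and by Egr2 (1.77) and Arc (1.29) in KO, while Ier2 did not pass in either. Each mouse at P70 exceeded each mouse at P21 for 2 members in WT and for 9 in KO, a pattern that 5.19% and 5.39% of all genes tested showed.

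**Figure D1:**
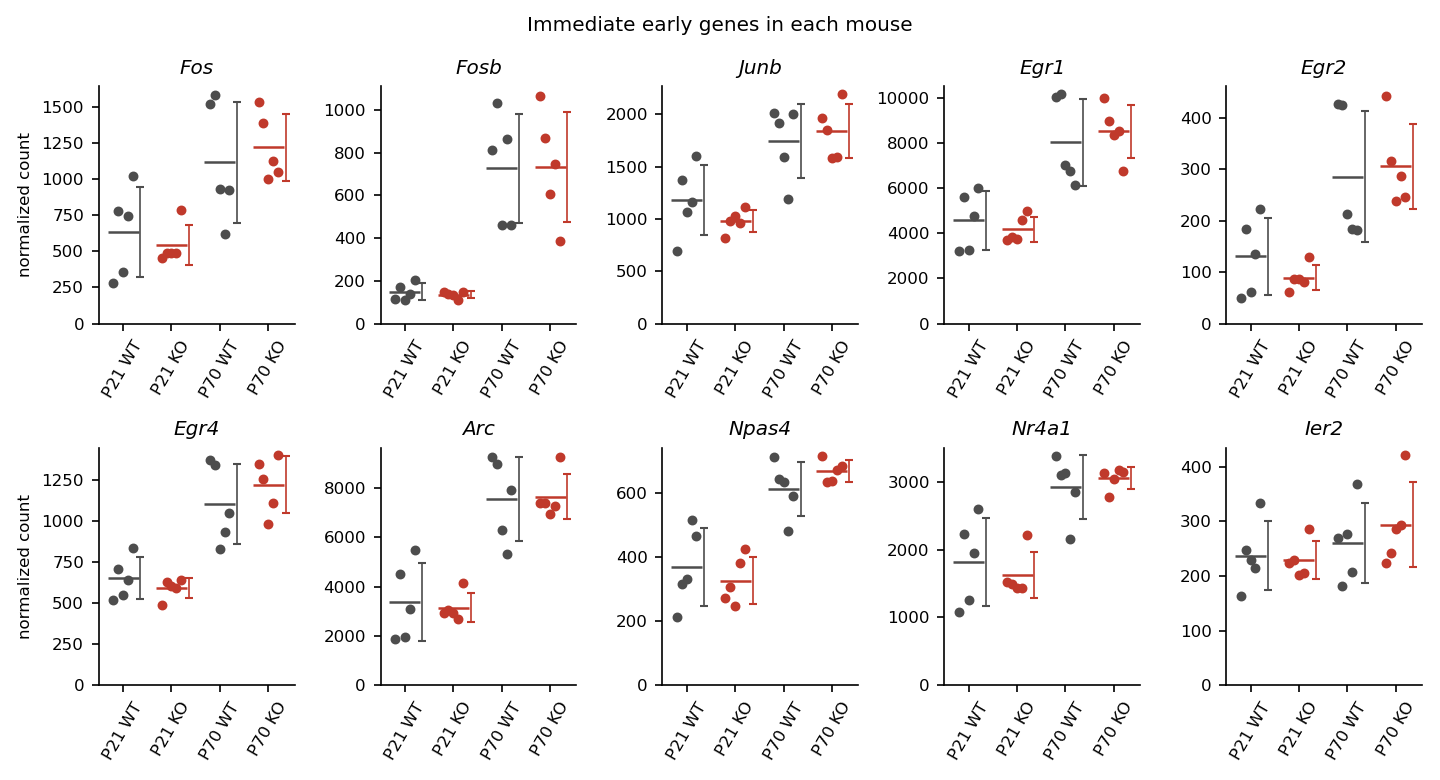
Normalized counts (linear axis from 0) of the 10 members in each mouse of the 4 groups; points are mice in order of replicate number, horizontal lines are means and the bars beside them are the SD (n = 5). Fosb lies between 108 and 206 in the P21 mice and between 386 and 1063 in the P70 mice, and the Ier2 values of all 4 groups overlap.

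Among the Fos and Jun family members, which pair to form the AP-1 transcription factor, Fosb (chromosome 7 from 19302696 to 19310051, minus strand, GRCm38) showed the largest difference. It had 115, 170.3, 109.9, 138 and 206 normalized counts in the P21 WT mice of replicates 1 to 5, and 812, 1029, 462, 862 and 461 at P70. In KO mice it had 147, 138, 134, 108 and 148 at P21 and 1063, 869.9, 605, 745 and 386 at P70. The lowest adult value was above the highest juvenile value in both genotypes. The log2 change was 2.25 in WT (SE 0.25, 4.75-fold, adjusted p = 5.85e-06) and 2.36 in KO (SE 0.25, 5.13-fold, adjusted p = 2.42e-06), where p-values are those of limma after Benjamini-Hochberg correction. Ranked by log2 change among 17637 genes, Fosb was number 12 in WT and number 10 in KO. The gene yields full-length FosB and, by splicing, the truncated and long-lived ΔFosB, and the table sums both. Fos, the founding AP-1 subunit (chromosome 12 from 85473890 to 85477273, plus strand), had 278, 776, 356, 744 and 1024 normalized counts in P21 WT mice and 1519, 1578, 929, 622 and 922 in P70 WT mice. In KO mice it had 450.3, 491, 487, 489 and 786 at P21 and 1535, 1388, 997, 1122 and 1045 at P70. The WT ages overlapped and the KO ages did not. Accordingly, Fos was higher at P70 in KO, by 1.18 on the log2 scale (SE 0.30, adjusted p = 0.0128), while the WT change of 0.89 (SE 0.30, adjusted p = 0.0618; exact two-sided permutation p = 0.0952) did not pass. The adjusted p for Fos in WT was 0.0205 without P21 WT replicate 5, 0.027 without P70 WT replicate 4 and 0.0454 without both P70 replicate 5 mice, so the call turns on single mice. Junb (chromosome 8 from 84974484 to 84978718, minus strand) had 698, 1371, 1065, 1164 and 1597 normalized counts in P21 WT and 2009, 1918, 1589, 1194 and 2003 in P70 WT mice. In KO mice it ran from 821 to 1110 at P21 and from 1584 to 2195 at P70. The WT mice overlapped because P70 replicate 4 was low and P21 replicate 5 was high. The log2 change of Junb was 0.59 in WT (SE 0.17, adjusted p = 0.0325) and 0.90 in KO (SE 0.17, adjusted p = 0.00156). In WT this call was lost without any 1 of P21 replicates 1, 3 and 4 and P70 replicates 1, 2 and 5, with adjusted p from 0.0604 to 0.0928.

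All 3 of the early growth response genes in the set, zinc finger factors that bind GC-rich promoters, were higher at P70 in both genotypes. Egr1 (chromosome 18 from 34859823 to 34864984, plus strand) had 3194, 5618, 3274, 4777 and 5988 normalized counts in P21 WT and 10038, 10162, 7017, 6738 and 6146 in P70 WT mice. In KO mice it had 3714, 3821, 3750.0, 4574 and 4963 at P21 and 9975, 8955, 8335, 8536 and 6748 at P70. Egr1 was, with Fosb, the other member whose WT ages did not overlap, although its margin was narrow, at 6146 against 5988. Its log2 change was 0.83 in WT (SE 0.17, adjusted p = 0.0033) and 1.03 in KO (SE 0.17, adjusted p = 0.000441). Egr2, known also for its part in Schwann cell myelination (chromosome 10 from 67535475 to 67542188, plus strand), had 50.6, 184, 61.1, 135 and 223 in P21 WT and 427, 424, 212, 183 and 183 in P70 WT mice. In KO mice Egr2 had 62.1, 86.1, 87.1, 80.3 and 129 at P21 and 443, 316, 239, 287 and 246 at P70. The P21 WT mice alone spanned 4.41-fold, the widest range of any member in any group. The log2 change of Egr2 was 1.24 in WT (SE 0.35, adjusted p = 0.026) and 1.77 in KO (SE 0.35, adjusted p = 0.00191). Its WT ages overlapped, and the exact two-sided permutation p was 0.0714 in WT and 0.00794 in KO. The WT call for Egr2 was lost without any 1 of P21 replicates 1 and 3 and P70 replicates 1 and 2, with adjusted p from 0.0765 to 0.0828. Egr4 (chromosome 6 from 85511121 to 85513589, minus strand) ran from 518 to 838 in P21 WT and from 831 to 1375 in P70 WT mice, so that 1 mouse of each group touched. In KO mice its ranges were 486 to 641 and 984 to 1403. Egr4 was higher at P70 by 0.76 in WT (log2, SE 0.15, adjusted p = 0.00156) and by 1.04 in KO (log2, SE 0.15, adjusted p = 5.87e-05).

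Arc (chromosome 15 from 74669083 to 74672570, minus strand) had 1872, 4496, 1953, 3098 and 5471 normalized counts in P21 WT and 9251, 8974, 6306, 5330.1 and 7914 in P70 WT mice. In KO mice it had 2945, 3050.2, 2907, 2685 and 4150.0 at P21 and 7396, 7382, 6965, 7276 and 9276 at P70. The KO ages were far apart, while in WT the lowest adult mouse fell just under the highest juvenile mouse. The log2 change of Arc was nearly the same in both genotypes, 1.26 in WT (SE 0.23, adjusted p = 0.00109) and 1.29 in KO (SE 0.23, adjusted p = 0.00079). Npas4, a neuron-specific basic helix-loop-helix factor that responds to calcium rather than to growth factors (chromosome 19 from 4984355 to 4990316, minus strand), had 212, 314, 331, 516 and 463 in P21 WT and 711, 643, 632, 479.6 and 589.9 in P70 WT mice. In KO mice Npas4 had 272, 307, 247, 379 and 423 at P21 and 715, 633, 635, 669 and 683 at P70. The P70 KO mice were the tightest group of any member, within 1.13-fold of each other. Npas4 was higher at P70 by 0.79 in WT (log2, SE 0.18, adjusted p = 0.00726) and by 1.06 in KO (log2, SE 0.18, adjusted p = 0.000552). Nr4a1 (chromosome 15 from 101254269 to 101274795, plus strand) had 1074, 2225, 1250.3, 1953 and 2606 in P21 WT and 3379, 3107, 3129, 2158 and 2852 in P70 WT mice. In KO mice Nr4a1 had 1528, 1496, 1428, 1437 and 2220.3 at P21 and 3134, 2772, 3045, 3170.5 and 3146 at P70. P70 WT replicate 4 again lay below the highest juvenile mouse. The log2 change of Nr4a1 was 0.75 in WT (SE 0.19, adjusted p = 0.0126) and 0.93 in KO (SE 0.19, adjusted p = 0.00225).

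Ier2, a small nuclear protein that growth factors and depolarization induce in many cell types (chromosome 8 from 84661331 to 84662852, minus strand), was the exception. It had 163, 248, 229, 214 and 334 normalized counts in P21 WT and 269, 181, 278, 206 and 368 in P70 WT mice. In KO mice it had 223, 229.6, 202, 205 and 286 at P21 and 223, 242, 287, 294 and 423 at P70. The ages overlapped in both genotypes, and replicate 5 was the highest mouse of every group. The log2 change was 0.13 in WT (SE 0.20, adjusted p = 0.749, fold interval at 95% 0.822 to 1.45) and 0.33 in KO (SE 0.20, adjusted p = 0.32, fold interval 0.946 to 1.67). Without the P70 replicate 5 mice the WT change of Ier2 was -0.01, and the other 9 members then passed in WT, Fos included. In KO the same 9 members passed with and without those mice. The members' log2 changes without them ran from -0.01 to 2.39 in WT and from 0.19 to 2.57 in KO.

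The second question was whether loss of Katnal2 alters these genes at either age. No member passed at P21 or at P70, where 0.0% of the 17610 and 0.0% of the 17613 genes tested passed. For the members the smallest unadjusted p was 0.224 at P21 (Junb) and 0.209 at P70 (Npas4). With the replicate number in the limma fit it was 0.051 at P21 (Junb) and 0.066 at P70 (Egr4). In the fits without that number, 429 and 199 of all genes had an unadjusted p under 0.05. Both counts are below the share of 0.05 that would fall there if no gene differed. The unadjusted p-values of limma thus ran high over all genes, for a reason that was not tested. At P21 the log2 difference, KO minus WT, was negative for 9 of 10 members with a median of -0.105 (0.93-fold). At P70 it was positive for 10 of 10 with a median of 0.12 (1.09-fold). Because the members vary together from mouse to mouse, as described below, their shared sign does not count as 10 separate observations.

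**Figure D2:**
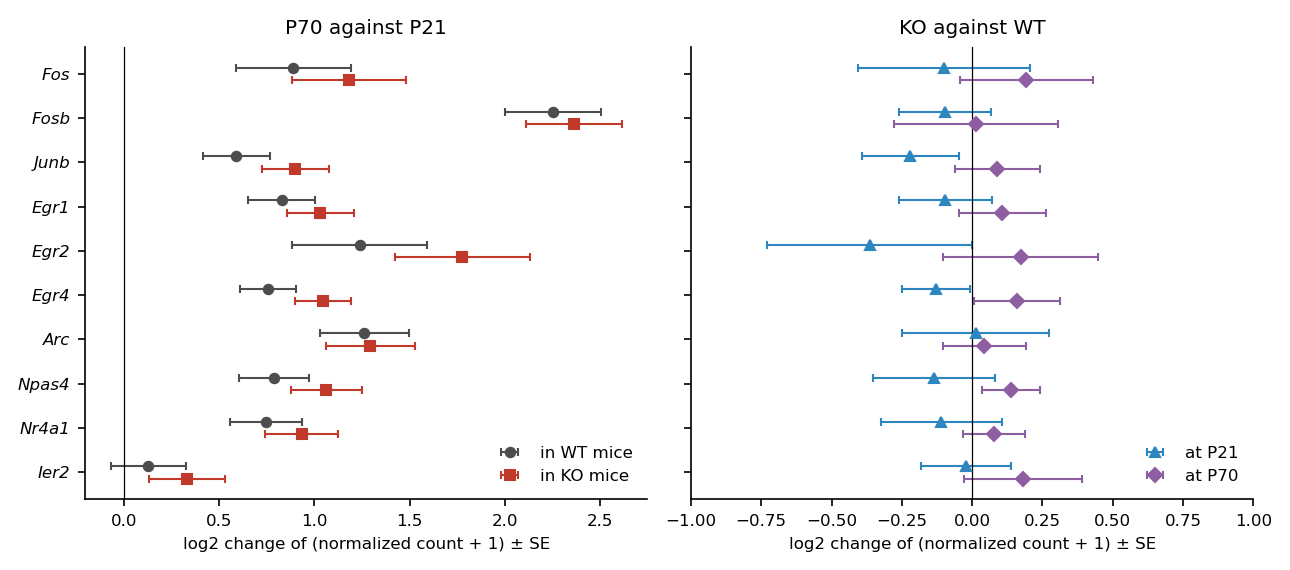
Log2 change of (normalized count + 1) ± SE from limma for each member, P70 against P21 in WT and KO mice on the left and KO against WT at P21 and P70 on the right (the axes differ in range). The changes with age run from 0.13 to 2.25 in WT and from 0.33 to 2.36 in KO, whereas the genotype differences run from -0.37 to 0.19 and none passed.

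At P21 the largest genotype differences were those of Egr2 and Junb, and at P70 that of Fos. Egr2 averaged 88.9 ± 24.4 normalized counts in KO and 131 ± 75.4 in WT mice at P21 (SD, n = 5 each). That is 0.777-fold on the fitted scale, with a 95% interval of 0.45 to 1.34 (exact two-sided permutation p = 0.444). Every KO mouse at P21 lay within the range of the WT mice for Egr2. Junb averaged 980.3 ± 106 in KO and 1179 ± 338 in WT mice at P21 (0.859-fold, interval 0.664 to 1.11). At P70, Fos averaged 1217 ± 233 in KO and 1114 ± 416 in WT mice (1.14-fold, interval 0.799 to 1.63). The narrowest interval was that of Npas4 at P70, at 667 ± 34.6 in KO and 611 ± 85.2 in WT mice (1.1-fold, interval 0.941 to 1.29). At P21 it was that of Egr4 (0.915-fold, interval 0.763 to 1.1). Some intervals were wide around almost no difference, as for Arc at P21 (1.01-fold, interval 0.684 to 1.49) and Fosb at P70 (1.01-fold, interval 0.649 to 1.57). Which differences remain possible thus varies by member and is set by each member's own interval. These intervals come from fits without the replicate number. With that number in the fit the SE was smaller for 10 of 10 members at both ages, as given below. Leaving out single mice moved the sign for 7 members at P21 and 4 at P70. Red blood cell transcripts moved with genotype at P21, where 5 of 5 markers (the hemoglobin genes and Alas2) were lower in KO with a median log2 difference of -0.75. None of these passed the adjusted threshold, 5 of 5 had an unadjusted p under 0.05, and their summed counts ran from 12038 to 30949 in KO and from 24464 to 61276 in WT mice. Choroid plexus markers were fitted higher in KO, 6 of 6 at both ages, with median log2 differences of 0.285 at P21 and 0.281 at P70. None of these 6 passed either, and 2 had an unadjusted p under 0.05 at P21 (Folr1 and Kcnj13) and 0 at P70. Their sums ran from 13942 to 26588 in KO and from 12209 to 18196 in WT mice at P21, and from 15064 to 26854 and 12204 to 26861 at P70. The part of either list in the members' values was not tested.

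The third question was whether the change with age differed between genotypes. The interaction was positive for 10 of 10 members, meaning a larger fitted rise in KO, with a median of 0.24 on the log2 scale and a range from 0.03 (Arc) to 0.54 (Egr2). None passed, as was the case for 0.0% of the 17637 genes tested, and the smallest unadjusted p was 0.179 (Egr4). Thus the larger count in KO (9 against 8 members) is not a tested difference between genotypes. Fos, which made that difference in count, had an interaction of 0.29 (SE 0.43).

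The members varied together among mice of 1 group. In the P21 KO group, replicate 5 had the highest value of all 5 mice for 10 of 10 members. In the P21 WT group, replicate 5 was highest for 9 (all except Npas4) and replicate 1 lowest for 9 (all except Fosb). On average over the members, those WT mice deviated from their group mean by 0.603 and -0.657 in log2 units. In the P70 WT group, replicate 1 was highest for 6 members and replicate 4 lowest for 5. The adult KO mice were less uniform, as replicate 1 was highest for 5 members and replicate 5 was highest for Junb, Egr4, Arc and Ier2 but lowest for Fosb and Egr1. Over the 20 mice, with each group centred on its mean, Pearson's r between a member and the mean of the other 9 was 0.97 for Fos, 0.95 for Egr2, 0.91 for Arc and 0.91 for Nr4a1. It was 0.87 for Egr1, 0.83 for Junb, 0.80 for Egr4 and 0.69 for Npas4, and lowest for Fosb at 0.43 and Ier2 at 0.29. These correlations are descriptive, since values of 1 mouse share a library and its normalization.

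**Figure D3:**
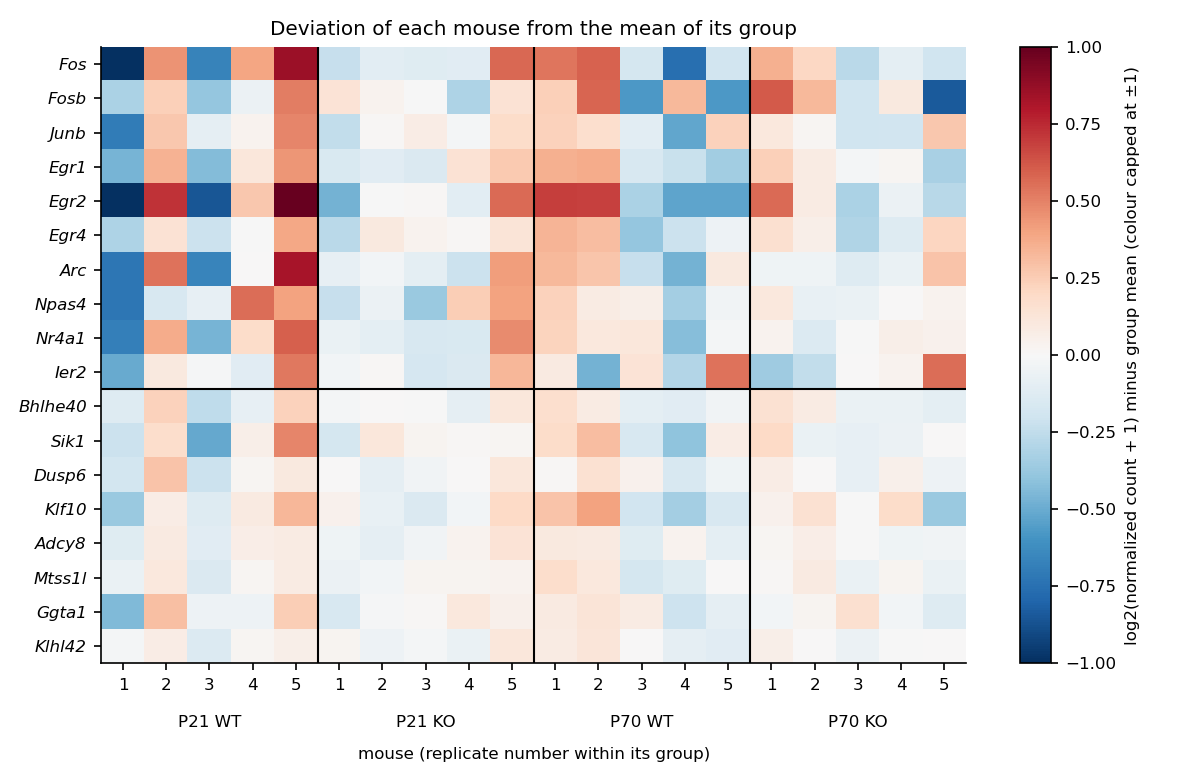
Deviation of each of the 20 mice (columns, by group and replicate number) from the mean of its own group in log2(normalized count + 1), for the 10 members (above the line) and the 8 other genes whose deviations were most like theirs (below it); the colour is capped at ±1. P21 WT replicate 5 is red and P21 WT replicate 1 blue across the members, and P21 KO replicate 5 is red across them.

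WT mice were more spread than KO mice for these genes. At P21 the SD of log2 values was larger in WT for 10 of 10 members, with a median of 0.479 in WT and 0.222 in KO. For all genes tested the medians were 0.142 and 0.138, and 53.2% of genes had the larger SD in WT. At P21 the range of the KO mice lay inside that of the WT mice for 8 members. At P70 the SD was larger in WT for 9 of 10 members (median 0.341 against 0.209, all except Fosb), where 39.0% of all genes had the larger SD in WT, and the KO range lay inside the WT range for 3. This difference in spread was not tested, and since the members share the mice that set it, it amounts to a few mice in each group. How often the KO range lay inside the WT range over all genes was not counted. Fos in P21 WT mice spanned 3.69-fold and Arc 2.92-fold, against 1.75-fold and 1.55-fold in P21 KO mice.

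Outside the set, the genes whose deviations were most like the members' mean were found among 14194 genes with a mean normalized count of at least 50, by Pearson's r over the 20 mice with each group centred. Bhlhe40 (r = 0.85), a transcriptional repressor, and Sik1 (r = 0.85), a CREB-induced kinase that restrains CREB coactivators, came first. Dusp6 (r = 0.80), a phosphatase of ERK, and Klf10 (r = 0.79), a Krüppel-like factor, followed. Adcy8 (a calcium-stimulated adenylyl cyclase), Mtss1l, Ggta1 and Klhl42 had r from 0.73 to 0.76. The change with age was not used in choosing these genes. With age 4 of the 8 rose in WT (Bhlhe40, Sik1, Mtss1l and Klhl42) and 4 in KO (Bhlhe40, Sik1, Klf10 and Mtss1l), and none fell. Bhlhe40 was higher at P70 in WT, by 0.68 on the log2 scale (SE 0.09, adjusted p = 2.69e-05), and in KO, by 0.75 (adjusted p = 7.65e-06). Sik1 was higher by 0.52 in WT (adjusted p = 0.0238) and 0.51 in KO (adjusted p = 0.0285). Dusp6 had changes of 0.08 in WT and 0.15 in KO, with adjusted p of 0.6 and 0.289, and Ggta1 had -0.18 and -0.02, with adjusted p of 0.416 and 0.94.

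Further genes of the same response were read from 3 lists. Of 24 measured early-response transcription factors and co-regulators beyond the set (25 listed), 10 rose with age in WT and 12 in KO and none fell, with median log2 changes of 0.364 and 0.362. Egr3, the remaining early growth response gene, had the largest change, from 1803 ± 281 to 4486 ± 1486 normalized counts in WT (SD, n = 5 each). Its log2 change was 1.25 in WT (SE 0.23, adjusted p = 0.00101) and 1.47 in KO (adjusted p = 0.000185). The AP-1 subunit Fosl2 rose by 0.85 in WT and 0.97 in KO (adjusted p = 0.00908 and 0.00339), and the nuclear receptor Nr4a3 by 0.83 and 1.02 (adjusted p = 0.0438 and 0.0131). By contrast Jun, the principal AP-1 partner, had changes of 0.05 and -0.13 (adjusted p = 0.684 and 0.234), and Nr4a2 had 0.38 and 0.30 (adjusted p = 0.196 and 0.315). Egr3, Arl4d, Crebbp and Hspa1b are named as the largest change of their list in WT, and the other genes of these lists whose change with age is given here and below were picked after those changes were seen.

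Among 25 effectors of neuronal activity, 7 rose in each genotype and 1 fell in WT, with median log2 changes of 0.26 in WT and 0.22 in KO. Arl4d, a small GTPase, rose by 0.98 in WT (SE 0.17, adjusted p = 0.00076) and 0.65 in KO (adjusted p = 0.017). Dusp4, an ERK and JNK phosphatase, rose by 0.67 and 0.88 (adjusted p = 0.00291 and 0.00022), and the secreted peptide precursor Vgf by 0.62 and 0.57 (adjusted p = 0.000789 and 0.00138). Rasl11b was the gene that fell, by 0.26 in WT (adjusted p = 0.035). The best known late-wave genes did not pass, as Bdnf, the neurotrophin, had changes of 0.28 and 0.36 (adjusted p = 0.155 and 0.0651), and Homer1, a postsynaptic scaffold whose short form is activity-induced, had 0.58 and 0.77 (adjusted p = 0.187 and 0.0697). Of 25 regulators that act on these promoters, 4 rose in WT and 5 in KO and none fell, with medians of 0.12 and 0.08. Crebbp, the acetyltransferase that binds phosphorylated CREB, rose by 0.475 in WT (SE 0.08, adjusted p = 0.000377) and 0.43 in KO (adjusted p = 0.000789). Creb1 itself had 0.18 and 0.12 (adjusted p = 0.609 and 0.753). The Egr corepressor Nab2, the coactivator Crtc1 and the kinase Rps6ka2 were the other 3 that rose in both genotypes, and serum response factor, Srf, rose in KO by 0.32 (adjusted p = 0.033). No gene of these 3 lists passed between genotypes at P21 or P70, where those with the smallest p included Maff at P21 (log2 difference -0.44, unadjusted p = 0.0243) and Ier5 at P70 (0.235, unadjusted p = 0.0439), both with an adjusted p of 1.

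**Figure D4:**
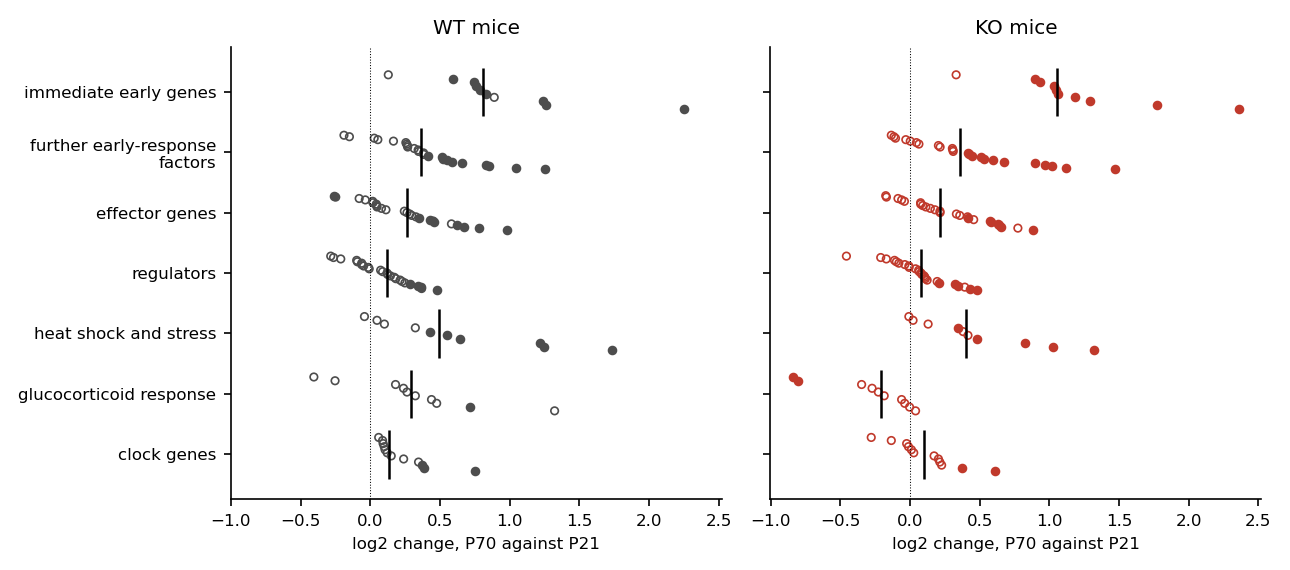
Log2 change from P21 to P70 in WT mice (left) and KO mice (right) for the 10 immediate early genes and the genes of 6 related lists; each point is a gene, filled where the adjusted p was under 0.05, and the vertical bars are list medians. The members' medians of 0.808 and 1.053 lie to the right of those of the other lists, which run from 0.12 to 0.489 in WT and from -0.206 to 0.399 in KO.

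Other transcripts moved with age beside the members, and their part in the members' change was not tested. Of 10 heat shock and stress genes, 6 rose in WT and 5 in KO, led by Hspa1b, an inducible HSP70, at 1.73 in WT (SE 0.315, adjusted p = 0.000939) and 1.32 in KO (adjusted p = 0.00818). Their summed counts ran from 97589 to 107650 in P21 WT and from 94392 to 125932 in P70 WT mice. Oligodendrocyte markers fell in both genotypes, 5 of 5 (Mbp, Mog, Mag, Mobp and Cnp), with median log2 changes of -1.09 and -1.26. Their sums ran from 239051 to 278455 in P21 WT and from 111663 to 139958 in P70 WT mice, and from 242598 to 370545 and 98922 to 146808 in KO. Red blood cell markers also fell, 5 of 5 in both genotypes, with medians of -2.01 in WT and -0.96 in KO. In WT their sums ran from 24464 to 61276 at P21 and from 6982 to 9945 at P70. Neurons are the cells in which these genes are induced by activity. Of 24 markers of excitatory, inhibitory, striatal and cerebellar granule neurons, 0 rose and 2 fell in WT (Slc17a7 and Cbln1), with list medians from -0.1 to 0.129. In KO, 2 rose (Neurod6 and Gad1) and 4 fell, of which 3 were among the 6 cerebellar granule neuron markers, namely Cbln1, Cbln3 and Zic1 with log2 changes of -0.375, -0.33 and -0.28 (adjusted p = 0.00752, 0.0068 and 0.0442). The median of those 6 was -0.289 in KO and -0.1 in WT, and 0 of them passed in the interaction. Over all 17637 genes tested, 1129 were lower at P70 in KO. Slc17a7 was the remaining marker that fell in KO. Neuronal markers were present in every mouse, with none at 0. Of the 18 astrocyte, microglia and endothelial markers none passed with age, and of 6 choroid plexus markers 2 rose in WT and 1 in KO.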

How the data were processed

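RNA-Seq was measured in whole brains of 20 male mice (5 per group). The authors purified poly-A RNA, prepared TruSeq libraries, sequenced paired ends, quantified transcripts with Salmon against GRCm38 while correcting for GC bias, summed them per gene through tximport and divided by DESeq2 size factors. The deposited values are therefore a normalized signal per gene, not raw counts. The submitters' processing notes list Salmon 1.1.0, R 3.6.2 and DESeq2 1.26.0. Whole reads could not be recovered, so a count test was not applied, and depths are approximate estimates from the spacing of low values. Gene symbols and coordinates came from GENCODE M21 (19447 of 19463 IDs matched), and promoter windows from RefSeq.

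Log2(value + 1) was fitted by limma 3.58.1 (R 4.3.3; lmFit and trended eBayes). Genes entered if their mean reached 10, p-values were adjusted by Benjamini-Hochberg over all genes tested, and the threshold was 0.05. KO was compared with WT in the 10 mice of each age, and age within genotype and the interaction were fitted over all 20 mice. The fits over 20 mice took 1 spread per gene for all 4 groups. Fold changes on this scale understate the change of low genes. Single values were tested by exact two-sided permutation of 5 against 5 mice (252 regroupings, smallest p 0.00794). Intervals are the 95% limits of the moderated fit. Python libraries were numpy 2.4.6, scipy 1.17.1 and pandas 2.3.3.

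The members and lists were chosen with earlier results of these data known. Named genes were the 10 members, Katnal2, from each list the 2 genes with the smallest p in each genotype comparison and the gene with the largest change with age in WT, and the 8 genes most like the members. Some of these are given only by counts, and genes named beyond this rule are said to be so. The lists were further early-response factors, effectors, regulators, heat shock, glucocorticoid response and clock genes, and markers of 11 kinds of cell or tissue, with 1 marker gene not reported here. Alternatives were no trend, quantile normalization, other filters (none, 50) and pseudocounts (0.5, 5), quality weights per mouse, the replicate block, each mouse left out, both replicate 5 mice left out and other samples in the fit.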

Additional observations from a re-analysis of the deposited data

Results flagged for a closer look

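In 4 of 40 groups of 5 mice, 1 member's highest value lay further from the next than Dixon's 95% critical ratio of 0.71 allows, and chance flags about 1 in 20 groups. In P21 KO replicate 5, Fos had 786 normalized counts (ratio of the gap to the whole range 0.879), Nr4a1 had 2220.3 (0.874) and Arc had 4150.0 (0.751). In P70 KO replicate 5, Arc had 9276 (0.813). The 3 flags in P21 KO replicate 5 come from a single library in which the other 7 members were also the highest of their group.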

How the results depend on the processing

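In KO mice, none of 20 alternatives changed a member's call with age (200 values), and in the genotype comparisons and the interaction no member passed under any. In WT mice the members called with age numbered 6 to 9. Over the alternatives other than leaving out single mice, Junb and Egr2 were lost in WT when the 10 WT mice were fitted alone (adjusted p = 0.0827 and 0.0717), while Fos passed with a quality weight per mouse (0.031). Over all genes, quality weights called 3855 in WT and 4439 in KO, and leaving out both P70 replicate 5 mice 3731 and 3879, against 1966 and 2094, with leaving out single mice giving 1386 to 1946 and 1447 to 2578. Between genotypes the limma fits called 0 genes, but at P21 quality weights called 1 (Spats2l), as did leaving out P21 WT replicate 3 (Spats2l) or P21 KO replicate 4 (Lenep), a range of 0 to 1, and at P70 leaving out both replicate 5 mice called 1 (Gm28438). None of these was a member. Signs turned under quality weights for Ier2 at P21 (0.075), Arc at P70 (-0.005) and the interaction of Arc (-0.053), and without both replicate 5 mice for Ier2 at P21 (0.026), Arc at P70 (-0.003), Ier2 with age in WT (-0.007) and the interaction of Arc (-0.016). The cause was not tested.

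Leaving out single mice gave log2 differences that changed sign at P21 for Fos (-0.356 to 0.113), Fosb (-0.194 to 0.031), Egr1 (-0.212 to 0.014), Arc (-0.167 to 0.219), Npas4 (-0.316 to 0.003), Nr4a1 (-0.28 to 0.04) and Ier2 (-0.149 to 0.109). At P70 it did so for Fosb (-0.14 to 0.225), Junb (-0.039 to 0.148), Arc (-0.075 to 0.124), Nr4a1 (-0.029 to 0.133) and Elk3 (-0.0 to 0.269). It also did so for Ier2 with age in WT (-0.007 to 0.261), and for the interaction of Fosb (-0.043 to 0.322) and Arc (-0.176 to 0.211).

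Replicate numbers are shared between groups, and same-numbered mice are separate animals. What a shared number stands for is not given in the sources used here, and the main fits did not take the numbers as pairs. Deviations of same-numbered KO and WT mice from their group means correlated at 0.005 to 0.256 at P21 and 0.062 to 0.709 at P70. With the replicate block, 0 genes passed between genotypes at P21, 0 at P70 and 0 in the interaction, and 2290 passed with age in WT and 2411 in KO, and no member's call changed. The KO mouse correlated best with the WT mouse of its own number for 7 of 10 numbers (3 of 5 at P21 and 4 of 5 at P70), and 6 of the 10 correlations were over 0.1. With the block the SE was smaller for 10 of 10 members in both genotype comparisons, with a median of 0.122 against 0.194 at P21 and 0.097 against 0.154 at P70, and the smallest adjusted p of a member was 1 at both ages. The smallest unadjusted p of a member with the block was 0.051 at P21 (Junb) and 0.066 at P70 (Egr4), from limma. The 95% intervals given above are those without the block.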

Other observations

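Among 10 genes of the glucocorticoid response, Pdk4, a mitochondrial kinase that limits glucose oxidation, rose with age in WT (log2 change 0.71, adjusted p = 0.0048) and had 0.04 in KO (adjusted p = 0.913). In KO, the receptor cochaperone Fkbp5 fell by 0.80 (adjusted p = 0.0259) and Sult1a1 fell by 0.84 (adjusted p = 0.0271), while in WT they had -0.25 and -0.41 (adjusted p = 0.542 and 0.326). The list median was 0.29 in WT and -0.21 in KO, and the interaction was negative for 10 of 10 genes with 0 passing and 1 at an unadjusted p under 0.05. Between genotypes at P70, 10 of 10 were lower in KO with a median log2 difference of -0.43, 0 passed and 1 had an unadjusted p under 0.05, namely Pdk4 at 325 ± 48.7 normalized counts in KO and 482 ± 88.0 in WT mice (SD, n = 5 each; adjusted p = 1 from limma). At P21, 10 of 10 were fitted higher in KO, with log2 differences from 0.073 to 0.542 and a median of 0.112. There 0 passed and 1 had an unadjusted p under 0.05. The summed counts of the list overlapped at P70, from 8622 to 19614 in KO and from 13829 to 20547 in WT mice. The genes of a hormone response move together, so these are not 10 separate observations.

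Among 12 clock genes, 3 rose with age in WT (Per2, Cry1 and Bhlhe41) and 2 in KO (Per2 and Cry1), and none fell. Per2 went from 1363 ± 162 normalized counts at P21 to 2295 ± 243 at P70 in WT mice (SD, n = 5 each; log2 change 0.75, adjusted p = 1.2e-05) and rose by 0.61 in KO (adjusted p = 0.000114). Dbp, a clock output gene, had 0.06 in WT and -0.13 in KO (adjusted p = 0.88 and 0.692). No clock gene passed between genotypes at either age in the limma fits, and 0 had an unadjusted p under 0.05. Of 5 pituitary markers 4 were in the table and 0 passed in any comparison, with summed counts up to 7508 in 1 P70 KO mouse against medians of 129 to 157 in the 4 groups.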
